A study of Mus musculus with 2 samples.

Results

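Livers of LaptTA mice carry a tetracycline transactivator under the liver activator protein promoter, which restricts it to the liver and mainly to hepatocytes. The study isolated liver cells by perfusion to ask which programs an activated, mutant YAP sets off in hepatocytes, and 3′ single-cell RNA-seq of the perfused cells gave 2 libraries. The control library had the genotype LaptTA;WT, and the tetYAP 4W library had LaptTA; tetYAP after 4 weeks of YAP induction, which was started by taking doxycycline away from mice aged 4 weeks. Both are of the C57BL/6 strain background. The labels call the cells hepatocytes and do not give the number or sex of the animals. A single library stands for each genotype, so groups and classes were compared without tests, and every interval is a 95% interval that covers counting error only.

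Barcodes with intermediate endothelial RNA were chosen by measured RNA. They were those in which 12 endothelial genes (Ptprb, Kdr, Egfl7, Cldn5, Ramp2, Clec4g, Stab2, Ehd3, Cd93, Calcrl, Dnase1l3 and Aqp1) summed to 4 to 14 raw unique molecular identifiers (UMIs), and in which 6 macrophage genes (C1qa, C1qb, C1qc, Cd5l, Vsig4 and Clec4f) summed to under 15. They numbered 187 of 4513 barcodes, 60 of 2989 in the control (2.01%, exact binomial interval 1.54 to 2.58) and 127 of 1524 in the tetYAP 4W library (8.33%, 6.99 to 9.84). They were set beside barcodes with a rule sum of 0 to 3 (low, 2841 control and 981 tetYAP 4W) and of 15 or more (high, 63 and 162), with the same macrophage limit. A further 25 and 254 barcodes were at or above the macrophage limit. The libraries shared 0 cell barcodes. The study had removed barcodes over 7500 UMIs, perhaps to an unlike extent in each library, which bears on the share of each class.

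Sinusoidal endothelial cells line the liver capillaries, through which plasma reaches the hepatocytes by way of open pores. They take up waste molecules with scavenger receptors such as Stab1 and Stab2, and they are held to instruct neighbouring hepatocytes through Wnt2, Rspo3 and Bmp2. After perfusion with collagenase, droplets can hold a whole cell, 2 cells, a cell that has lost part of its RNA, or RNA released by other cells. The question was whether barcodes with intermediate endothelial RNA read as a mixture, as damaged cells or as a state of their own, and the values below bear on it without a verdict, which the design with 1 library each does not allow.

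The rule sums chose the barcodes, and they are given as a description with no test. In the control library 2134, 570, 100 and 37 barcodes had rule sums of 0, 1, 2 and 3, and then 27 had a sum of 4 and 7 a sum of 5. No control barcode had a sum of 15 and 49 had 30 or more. In the tetYAP 4W library the counts at 0 to 3 were 486, 318, 128 and 49, followed by 28 at a sum of 4 and 19 at 5, and 122 barcodes had 30 or more. The members therefore lay on a continuous tail of the low barcodes at their lower end, and were nearly cut off from the high barcodes in the control but joined to them in the tetYAP 4W library, where 6 barcodes had a sum of 14 and 9 a sum of 15. Within members the median rule sum was 5 (quartiles 4 and 8) in the control and 7 (quartiles 5 and 10) in the tetYAP 4W library, spread over a median of 4 and 5 of the 12 genes.

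**Figure D1:**
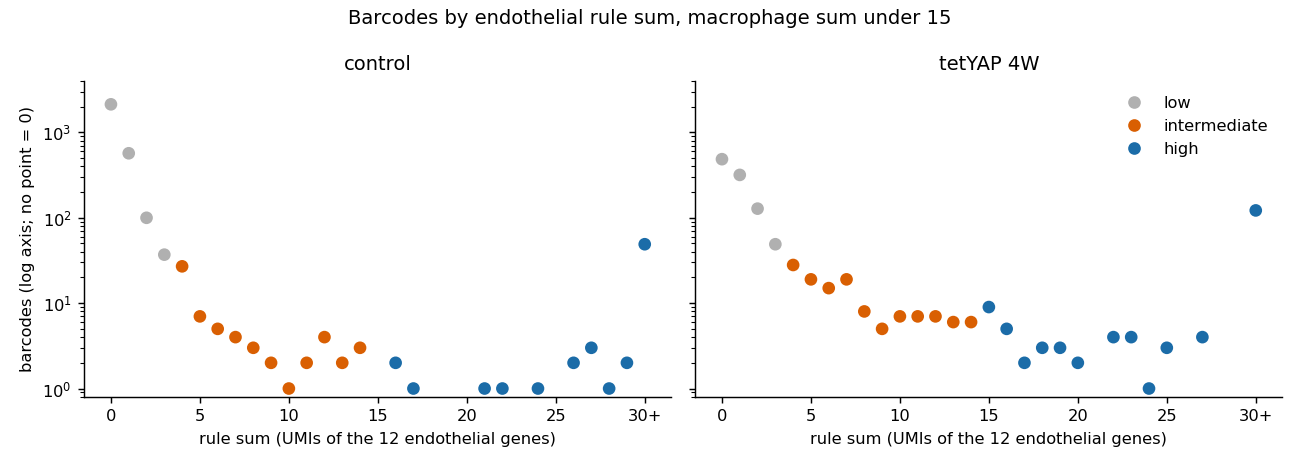
Number of barcodes (log axis) at each UMI sum of the 12 endothelial genes of the rule, for barcodes with a macrophage sum under 15; sums of 30 and above share the last point, and colours give the 3 classes. Control barcodes fall steeply to a sum of 5 (7 barcodes), number at most 5 at each sum from 6 to 14 (3 at 14), and are few between 15 and 29. The tetYAP 4W barcodes fill every sum from 4 to 20.

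The members also carried endothelial RNA that the rule had not used. Of 46 other endothelial genes, 44 had a UMI in control members and 46 in tetYAP 4W members. Per barcode these genes gave 0.988 UMIs in low, 8.15 (7.44 to 8.91) in intermediate and 51.0 in high control barcodes. In the tetYAP 4W library they gave 2.67, 14.2 (13.6 to 14.9) and 91.2 UMIs. Member by member, the control values ran from 0 through a median of 6 to 27, and the tetYAP 4W values from 1 through 13 to 39, so that the members overlapped the low barcodes (up to 13 and 28) and the lowest of the high barcodes (from 8 and 6). The values just inside and just outside the limits follow. At rule sums of 3 and 4 the medians were 3 and 4 UMIs in the control and 4 and 5 in the tetYAP 4W library, and at sums of 10 to 14 and of 15 to 19 they were 14.5 and 24 in the control and 21 and 28.5 in the tetYAP 4W library.

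As a share of all UMIs, the other endothelial genes were higher in intermediate than in low barcodes by a log2 of 2.81 (2.67 to 2.95) in the control and of 2.60 (2.52 to 2.69) in the tetYAP 4W library. Of 24 such genes that reached 30 UMIs in the control, 22 were at least 2-fold higher, 19 with the whole interval, against 13.7% and 1.23% of all 7902 genes compared. In the tetYAP 4W library 36 of 37 were at least 2-fold higher, 32 with the whole interval, against 8.8% and 1.82% of 7754 genes. 0 genes of the list was 2-fold lower there, where 3.34% of all genes were, 0.193% with the whole interval. Compared with high barcodes the list stood lower, at a log2 of -2.31 (-2.45 to -2.17) in the control and -2.16 (-2.23 to -2.09) in the tetYAP 4W library. There 33 of 33 genes were at least 2-fold lower in the control, 25 with the whole interval, where 21.4% and 8.71% of all genes were. In the tetYAP 4W library 43 of 44 were, 39 with the whole interval, where 35.9% and 8.88% of all genes were. High barcodes were chosen for more endothelial RNA, and in the control they gave 3216 UMIs of the list against 489 in members. Genes could thus reach 30 UMIs through the high barcodes alone. The counts against high barcodes were largely set by this choice and are a description.

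Stab1, the scavenger receptor stabilin-1, was the clearest single example (chr14:31139017-31168651, GRCm38.p6). It gave 27 UMIs in 21 of the 60 control members and 138 UMIs in 61 of the 127 tetYAP 4W members. Its level was 0.0183, 0.45 and 2.17 UMIs per barcode in low, intermediate and high control barcodes, and 0.0693, 1.09 and 4.53 in the tetYAP 4W library. The log2 over low barcodes was 4.38 (3.66 to 5.08) and 4.16 (3.73 to 4.60). Hspg2, which encodes the matrix proteoglycan perlecan, gave 9 and 64 UMIs in members and was higher than in low barcodes by 3.64 (2.38 to 4.76) and 3.75 (3.16 to 4.35). Ltbp4, a binding protein of latent TGF-beta, gave 13 and 51 UMIs, with a log2 of 4.39 (3.30 to 5.41) and 3.91 (3.23 to 4.61). Plxnd1, a semaphorin receptor, gave 9 and 41 UMIs, with a log2 of 5.04 (3.59 to 6.45) and 3.18 (2.51 to 3.84). All 4 markers were thus detected in members of both libraries and were far above the level of low barcodes, with intervals that do not reach 2-fold.

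Endothelial receptors and identity genes lay in the same range. Pecam1, an adhesion molecule of endothelial junctions, was higher than in low barcodes by a log2 of 4.25 (2.92 to 5.47) in the control and 2.44 (1.81 to 3.06) in the tetYAP 4W library. Cdh5, the junctional cadherin, was higher by 3.27 (2.23 to 4.20) and 2.25 (1.60 to 2.89). Eng, a TGF-beta co-receptor, was higher by 4.15 (3.44 to 4.83) and 3.08 (2.59 to 3.57), and the sinusoidal receptor Gpr182 by 3.61 (2.81 to 4.35) and 3.10 (2.60 to 3.59). Among hepatocyte-directed signals, Bmp2 gave 28 UMIs in control members and 38 in tetYAP 4W members, with a log2 of 4.30 (3.597 to 4.98) and 3.58 (2.84 to 4.34), whereas Wnt2 gave only 3 and 7 UMIs and Rspo3 gave 0 and 8.

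Members also held hepatocyte RNA. The 12 hepatocyte markers, among them Alb, Apoa1 and Ttr, gave a median of 342.5 UMIs in control members (195 to 790), 347 in low and 369 in high barcodes. Their tetYAP 4W counterparts had medians of 293 (142 to 794), 342 and 287.5. Every member thus held hepatocyte RNA, and so did every high barcode. Per barcode the difference from low barcodes was a log2 of 0.016 (-0.004 to 0.036) in the control and -0.19 (-0.20 to -0.17) in the tetYAP 4W library. As shares of UMIs it was -0.22 (-0.24 to -0.20) and 0.005 (-0.010 to 0.020), so which library differed depended on the measure. The rule sum of a member and its hepatocyte marker UMIs had a Spearman rho of -0.06 across 60 control and -0.19 across 127 tetYAP 4W members, against 0.649 and 0.655 for the rule sum and the other endothelial UMIs. These points share a library and differ in depth, so the correlations are descriptions.

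Depth and RNA quality of members were nearer to low than to high barcodes in the control. The median was 3099 UMIs in low, 3369 (quartiles 3204 and 3710) in intermediate and 4646 in high control barcodes, and 4059, 3588 and 5767 in the tetYAP 4W library. After thinning to 2000 UMIs, the median number of genes was 671, 716 and 921 in the control (901, 1030 and 1692 without thinning) and 527, 721 and 978 in the tetYAP 4W library (890, 1012 and 2124 without thinning); 91 shallower low barcodes of the control were left out. The mitochondrial share of UMIs was 28.2%, 29.7% and 20.9% in the control and 49.0%, 38.4% and 23.9% in the tetYAP 4W library. The medians of members and low barcodes differed by 1.5 percentage points in the control and by -10.6 in the tetYAP 4W library. Ribosomal protein genes took 4.90%, 5.15% and 5.63% of UMIs in the control and 2.66%, 5.10% and 8.83% in the tetYAP 4W library.

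**Figure D2:**
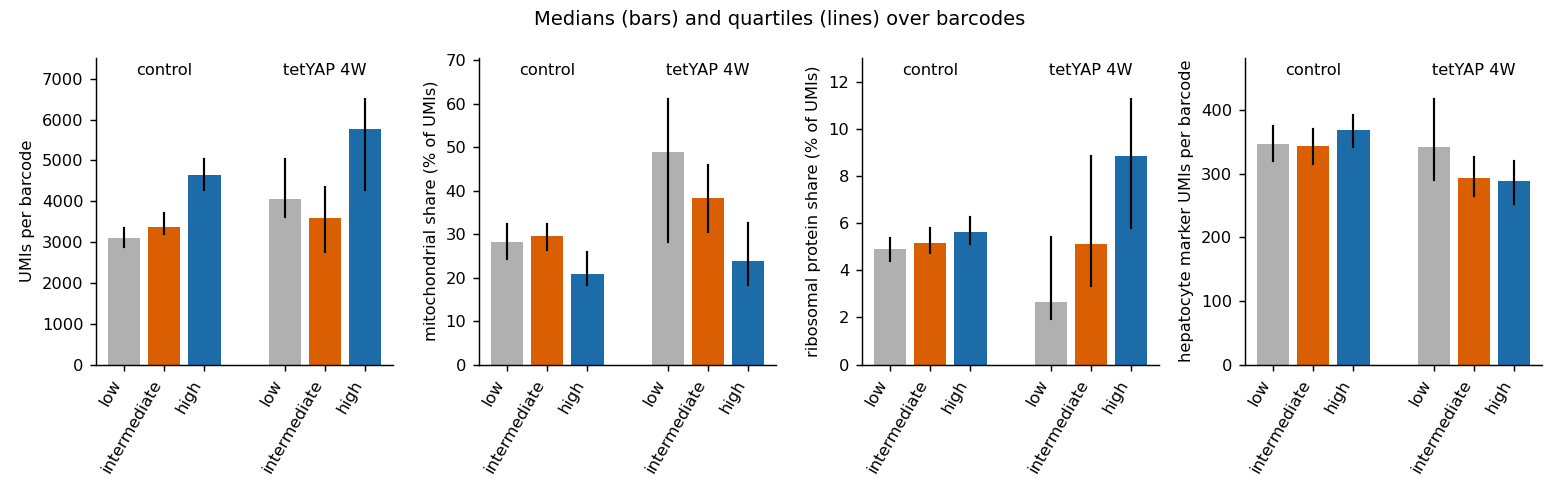
Medians (bars) with quartiles (lines) over barcodes of each class and library for total UMIs, the mitochondrial and ribosomal protein shares of UMIs, and UMIs of the 12 hepatocyte markers. Control members sit beside low barcodes in the mitochondrial share (29.7% and 28.2%), tetYAP 4W members sit between low and high (38.4% against 49.0% and 23.9%), and hepatocyte marker UMIs differ little between classes.

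Malat1, a long non-coding RNA that stays in the nucleus, was at the level of low barcodes in control members and far above it in high barcodes. It lies at chr19:5795690-5802672 (GRCm38.p6). It gave a median of 2 UMIs in low, 2 in intermediate (0 to 22) and 24 in high control barcodes (4 to 90). At least 10 UMIs were found in 1.76% of low barcodes, in 3 of 60 members (5%, 1.043 to 13.9) and in 60 of 63 high barcodes (95.2%, 86.7 to 99.0). After thinning to 2000 UMIs, at least 5 UMIs were found in 3.09%, 6.67% (1.85 to 16.2) and 85.7% (74.6 to 93.3). Malat1 did not follow the endothelial UMIs inside the class. Its median was 2 UMIs at a rule sum of 4 and 3 at sums of 10 to 14, with a Spearman rho of -0.05 across the 60 members, and then 31 in the 3 control barcodes with sums of 15 to 19.

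In the tetYAP 4W library Malat1 did not separate the classes at the same rule sum. The medians were 3 UMIs in low, 4 in intermediate (0 to 101) and 33 in high barcodes (0 to 153), and 38 of 127 members (29.9%, 22.1 to 38.7) had at least 10 UMIs, against 29.5% of low and 83.3% of high barcodes. Within the high barcodes the median was 2.5 UMIs at rule sums of 15 to 19, 8.5 at 20 to 29 and 40.5 at 30 or more. All 122 barcodes with a sum of 30 or more had at least 10 UMIs. The 27 high barcodes with under 10 UMIs of Malat1 had rule sums of 15 to 27 and a median mitochondrial share of 36.9%, close to the 38.4% of the members. Barcodes with under 10 UMIs of Malat1 thus made up 27 of 162 high barcodes in the tetYAP 4W library and 3 of 63 in the control. In the tetYAP 4W library the upper limit of the rule cut through them.

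**Figure D3:**
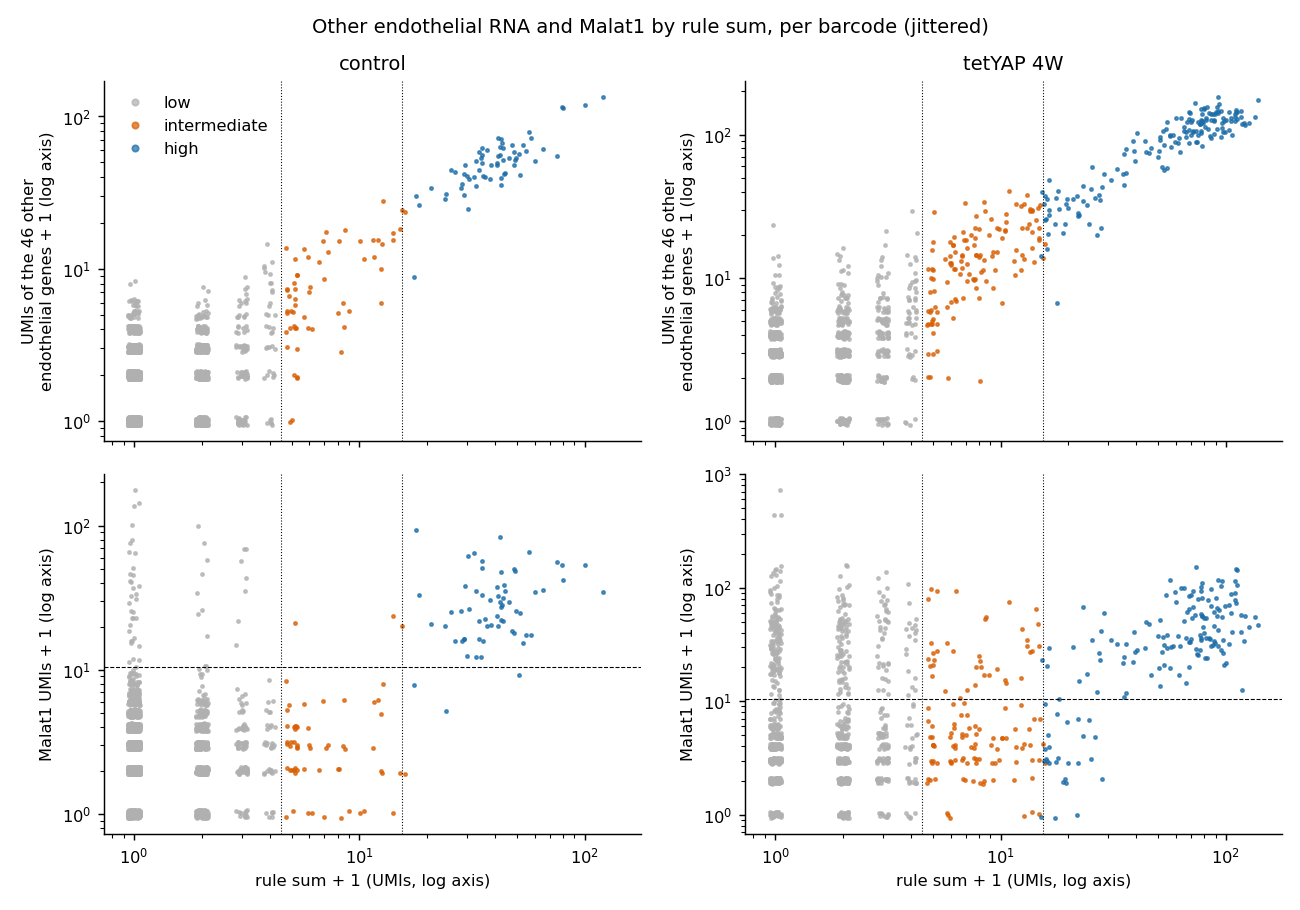
UMIs of the 46 other endothelial genes (top) and of Malat1 (bottom) against the rule sum, 1 point per barcode, all axes logarithmic after adding 1 and with points jittered; dotted lines mark the limits of the rule and the dashed line 10 UMIs of Malat1. Other endothelial UMIs climb with the rule sum through all classes, whereas the median of Malat1 is at most 5 UMIs in each span of rule sums among members.

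The other genes of endothelial barcodes were not all present in the same proportion. For each gene more than 4-fold higher per barcode in high than in low barcodes (and with at least 80 UMIs in high barcodes), the level in members was placed on a scale from the low (0%) to the high level (100%). Genes whose excess in high barcodes was found in equal proportion in members take equal positions. Over 70 such genes the median position was 13.2% (quartiles 9.55 and 16.7) in control members, and over 433 genes it was 11.2% (quartiles 6.58 and 14.8) in tetYAP 4W members. The 9 control genes that belong to the rule stood at a median of 15.1% and 12 other endothelial genes at 13.7%, while Malat1 had the lowest position of the 70 genes, 1.37% (-0.16 to 3.08), and stood at -0.41% (-2.44 to 1.87) when levels were taken as shares of UMIs. All 70 genes were picked by their level in high barcodes. The choice of members itself raised the rule genes and genes that go with them, so their distance from Malat1 is a description.

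Immediate early and stress genes, which are known to respond quickly to tissue dissociation, lay at the low end. In control members Jund, Jun, Dusp1 and Fos stood at 4.13%, 4.62%, 4.81% and 6.20%, all 4 under the median of 13.2%. The whole list of 19 genes gave 1.48 UMIs per low, 2.25 per intermediate and 17.95 per high control barcode, a position of 4.68% (2.48 to 7.19). Measured as shares of UMIs, Jun was lower in members than in high barcodes by a log2 of -3.61 (-4.85 to -2.59) and Fos by -3.42 (-4.36 to -2.61), with 8 and 13 UMIs left. Both reached the limit of 100 UMIs for naming through the high barcodes, so their place among the lowest ratios is no result. By the same measure the whole list was lower by -2.65 (-2.92 to -2.40), beside -2.31 (-2.45 to -2.17) for the other endothelial genes. Klf2, a transcription factor that answers to blood flow, stood at 6.64% in control and 4.42% in tetYAP 4W members, but at 18.1% in the latter with the restricted low barcodes described next, where the median of all enriched genes was 16.7%. The mannose receptor Mrc1 stood at 6.84% in control and at 12.8% in tetYAP 4W members, under the median of the one library and above that of the other.

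In tetYAP 4W members the same list stood at -6.04%, that is below the low barcodes. Low barcodes of that library held T, NK and B cell, neutrophil, monocyte and stellate markers, and 715 of the 981 had under 4 such UMIs. The list gave 5.03 UMIs per barcode in all 981 and 2.13 in these 715, against 3.87 in members. With those 715 as the low group the list stood at 7.92% (6.40 to 9.54), and with members that carried markers of another class left out as well, at 2.35% (1.05 to 3.76). Malat1, with 15.8 UMIs per low and 41.8 per high barcode under the limit for the 433 genes, moved in the same way, from -13.2% to 11.96% (10.2 to 13.8) and to -0.41% (-2.02 to 1.27). Relative to high barcodes, which needs no low group, Fosb was lower by a log2 of -4.64 (-5.96 to -3.58), Egr1 by -4.54 (-6.00 to -3.40), Jun by -4.42 (-5.23 to -3.71) and the chemokine Cxcl10 by -5.13 (-7.42 to -3.56). Their member counts were 7, 6, 16 and 3 UMIs, and they reached the limit of 100 UMIs for naming through the high barcodes, so their place among the lowest ratios is no result. Of the 18 listed immediate early genes compared, 14 were at least 2-fold lower in members, 10 with the whole interval, where 35.9% and 8.88% of all genes were. The list had 3917 UMIs in high barcodes against 492 in members. Genes could thus be compared through the high barcodes alone, so this count is a description and no result. Against high barcodes the whole list was lower by a log2 of -2.12 (-2.25 to -1.98). That is close to the -2.16 (-2.23 to -2.09) of the other endothelial genes.

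Of the markers named above, Ltbp4, Hspg2 and Plxnd1 had 48, 43 and 54 UMIs in high control barcodes, under the limit for the 70 genes, so their control positions rest on few UMIs. Ltbp4 stood at 27.6% (14.2 to 48.0) in control and 29.5% (21.3 to 39.5) in tetYAP 4W members. Stab1 stood at 20.02% (12.9 to 29.5) and 22.8% (18.9 to 27.2), Hspg2 at 20.8% (8.68 to 40.8) and 24.9% (18.6 to 32.4), and Plxnd1 at 17.1% and 17.0%. Col4a2, a chain of basement membrane collagen, stood at 28.9% (19.98 to 39.99) in tetYAP 4W members. Of the genes of the rule, which the choice of barcodes itself raised, Egfl7 stood at 12.6% (7.73 to 19.2) and 20.9% (17.4 to 24.8), Ptprb at 20.04% and 12.2%, and Kdr at 16.9% and 10.7%. Dnase1l3, a secreted nuclease, and Aqp1, a water channel, stood at 12.6% and 13.5% in the control but at 5.02% (3.597 to 6.75) and 8.11% (6.63 to 9.79) in the tetYAP 4W library.

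Across the 58 genes that passed in both libraries, positions had a Pearson r of 0.525 and a Spearman rho of 0.41. This is a description across genes that share libraries and depth, and genes are not replicates.

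**Figure D4:**
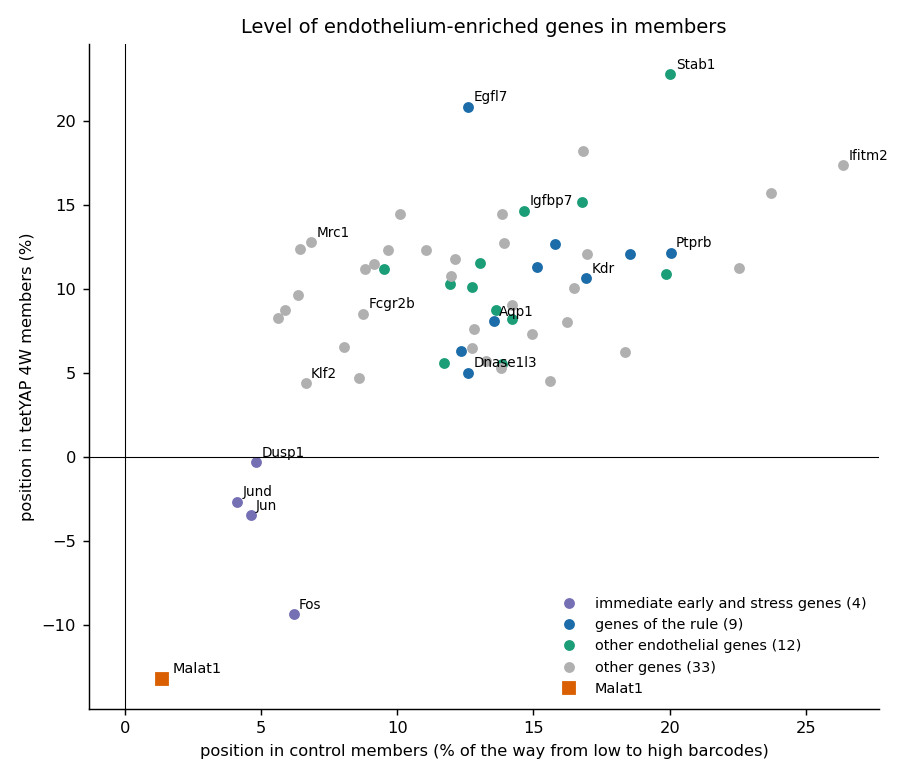
Position of 58 genes enriched in high barcodes of both libraries, and of Malat1, which passed that limit in the control library alone, in control members (horizontal) and tetYAP 4W members (vertical), in percent of the way from the level per low barcode to that per high barcode, coloured by gene list. Malat1 and the 4 immediate early genes lie at the lower left, at most 6.20% in the control and under 0% in the tetYAP 4W library, and Stab1 at the upper right (20.02% and 22.8%). With restricted low barcodes Malat1 and these 4 genes stood above 0% in the tetYAP 4W library, from 0.15% (Jun) to 11.96% (Malat1). With barcodes of other classes left out as well, Malat1, Fos and Jun were below 0% again.

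Some members held the RNA of a further cell type. By a limit set after the values were seen (10 UMIs of T and NK, B cell, neutrophil and monocyte, stellate or further macrophage markers, or 50 of erythroid markers), 2 of 60 control and 14 of 127 tetYAP 4W members did. In the tetYAP 4W library such RNA was not particular to members. T and NK markers there took a lower share of UMIs in members than in low barcodes (log2 -0.90). So did B cell (-0.93), neutrophil and monocyte (-1.73), erythroid (-1.47) and further macrophage markers (-0.22), while stellate markers took a higher share (1.63). In the control 1 barcode had 1237 haemoglobin and other erythroid UMIs, against 8 in the other 59 members together, and in the tetYAP 4W library 1 barcode had 1426 against 29 in the other 126. T and NK markers gave 0 UMIs in control members (an exact Poisson upper bound of 0.0615 per barcode) and 281 in tetYAP 4W members, where 5 barcodes had at least 10. B cell markers reached 10 UMIs in 3, neutrophil and monocyte markers in 2, stellate markers in 2 and further macrophage markers in 6 tetYAP 4W members, and 1 barcode had 228 of the 400 stellate UMIs. Ccl5, a chemokine of cytotoxic lymphocytes, was higher in tetYAP 4W members than in high barcodes by a log2 of 4.93, and Dcn, a stromal matrix protein, by 1.505, and both belong to these marker lists. The haemoglobin genes Hbb-bs, Hbb-bt and Hba-a1 had the highest ratios of control members over low barcodes among genes outside the rule with at least 100 UMIs, and they too belong to the erythroid list.

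With these 14 barcodes left out and low barcodes restricted, 39 other endothelial genes had a median position of 12.7% in the 113 remaining tetYAP 4W members, and 26 of the 113 (23.0%, 15.6 to 31.9) had at least 10 UMIs of Malat1. Other endothelial genes gave 17.8 UMIs per barcode in the 26 and 13.6 in the other 87, and Stab1 gave 2.27 and 0.816. The ribosomal protein share was 3.32% and 5.49% (medians) and the mitochondrial share 38.0% and 40.1%. The 69 ribosomal protein genes enriched in high over restricted low barcodes stood at a median of 26.2% in these members, where all 664 enriched genes had 13.7%.

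Transcriptomes outside the rule genes placed most control members among low barcodes, and tetYAP 4W members among low or intermediate barcodes. Among the 15 nearest neighbours of control members, computed on 20 principal components without the 18 genes of the rule, 68.8% were low, 29.1% intermediate and 1.67% high, where intermediate barcodes made up 2.01% of the library. For tetYAP 4W members the shares were 41.5%, 43.8% and 12.6%, where they made up 8.33%. A majority of intermediate neighbours was found for 18 of 60 and for 63 of 127 members, and a majority of low neighbours for 42 and 45. These neighbours are found from the other endothelial genes among the rest, so they are no separate evidence of a state. Scrublet, a doublet caller, marked 9 control and 0 tetYAP 4W barcodes, none of them members, which is too few for it to have worked, so doublets were not removed. Whether mixing, loss of RNA or a state of their own lay behind the members was not tested.

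Between the libraries, endothelial, capillary and matrix lists took a higher share of UMIs in tetYAP 4W members, and so did stellate markers. As shares of UMIs, the other endothelial genes were higher than in control members by a log2 of 0.76 (0.61 to 0.91), beside 0.96 in low and 0.61 in high barcodes, and by 0.30 when every barcode was thinned to 2000 UMIs before the rule was applied. Of 27 such genes with at least 30 UMIs, 12 were at least 2-fold higher and 0 lower, 1 with the whole interval, where 13.2% of all 1974 genes were higher and 14% lower (4.31% higher and 3.85% lower with the whole interval). A list of capillary, large vessel and matrix genes was higher by 1.87 (1.46 to 2.30), beside 2.93 in low and 1.36 in high barcodes. The stellate and mesenchymal list was higher by 1.85 (1.42 to 2.30), with 51 against 400 UMIs, 228 of them in 1 barcode. Without barcodes of other classes the capillary list was higher by 1.87 (1.44 to 2.32) and the stellate list by 0.77 (0.25 to 1.32). Sparc and Col4a1 are also made by stellate cells, whose part in these values was not tested. Sparc, a matrix protein, gave 25 UMIs in control and 208 in tetYAP 4W members, a log2 of 1.93 (1.33 to 2.59), and Col4a1 gave 6 and 51 UMIs, a log2 of 1.96 (0.74 to 3.47). Fabp4, the fatty acid carrier of capillary endothelium, gave 4 UMIs in 2 control members and 170 in 58 tetYAP 4W members, a log2 of 4.28 (2.90 to 6.18), beside 3.79 in low and 3.03 in high barcodes.

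Inflammation, cell cycle and YAP lists had few UMIs in members. The inflammation and interferon list was higher in tetYAP 4W members by a log2 of 2.13 (1.47 to 2.85), with 21 UMIs in the control against 200, beside 2.40 in low and 1.01 in high barcodes. The proliferation list was higher by 2.57 (1.81 to 3.43), with 15 against 194 UMIs, beside 2.46 and 1.58. Within the tetYAP 4W library proliferation genes gave 0.865 UMIs per low, 1.53 (1.32 to 1.76) per intermediate and 2.06 per high barcode, and as shares of UMIs all 14 genes compared were above low barcodes, 7 by at least 2-fold and 0 with the whole interval, where 4756 of all 7754 genes were above low barcodes, 8.8% by at least 2-fold and 1.82% with the whole interval. Stmn1, a microtubule regulator of dividing cells, led these with 41 UMIs in 26 members. YAP targets were higher in tetYAP 4W members by 0.65 (0.13 to 1.197), beside 2.12 in low and 0.53 in high barcodes, and the only target with 30 UMIs, Dlc1, differed by 0.17 (-0.89 to 1.33). Immediate early genes were higher by 0.74 (0.46 to 1.03), and by 0.22 without members that held another cell type.

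The extremes between the libraries were genes of hepatocyte and other RNA, seen in every class. Mup21, Mup11 and Mup20, major urinary proteins made by hepatocytes, were lower in tetYAP 4W members by a log2 of -8.13, -8.04 and -6.97. In low barcodes Mup11 was lower by -8.74 and in high barcodes by -9.29. Xist, which is transcribed from the inactive X chromosome, gave 0 UMIs in control and 326 in tetYAP 4W members, 3 and 2884 in low and 0 and 813 in high barcodes. With 1 library per group, YAP induction, animal and sex cannot be told apart in any of these differences. Further macrophage markers were higher in tetYAP 4W members by 4.30 (3.48 to 5.26), with 12 against 516 UMIs, beside 5.22 in low and 1.87 in high barcodes; Lyz2, a macrophage lysozyme, gave 3 and 154 UMIs. The part of macrophage RNA in the member values was not tested.

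**Figure D5:**
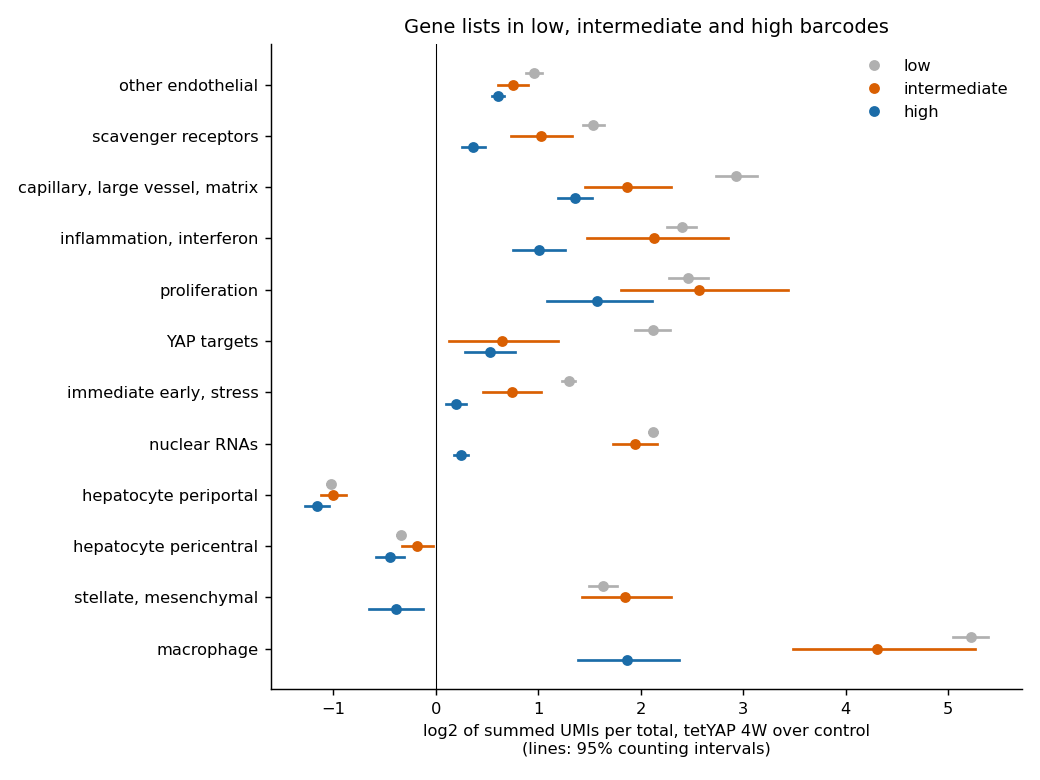
Log2 ratio of summed UMIs per total, tetYAP 4W over control, for 12 gene lists in low, intermediate and high barcodes, with 95% counting intervals; 0 marks equal shares. Members lie between low and high barcodes for several lists, among them the other endothelial genes (0.76) and the capillary list (1.87), and the periportal hepatocyte list is lower in all 3 classes (-0.997 in members).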

How the data were processed

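The authors deposited raw counts in 1 table, whole numbers of UMIs for 31053 genes and 4513 barcodes of both libraries. Per the study's methods, reads were aligned to mm10 with Cell Ranger at default parameters, and Seurat 3 was used afterwards. Barcodes were down-sampled to an equal number per condition and those over 7500 UMIs removed (0 are in the table). The table holds 2989 control and 1524 tetYAP 4W barcodes, so the limit may have removed unequal parts of the libraries. Its effect on the shares and depths of the classes was not tested. No removal of ambient RNA is stated, which bears on low counts in every class. Barcodes held 516 to 7277 UMIs in the control and 2355 to 7493 in the tetYAP 4W library, and members 2662 to 7277 and 2366 to 7372.

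Classes were set by the rule sums on the raw counts, and the library of a barcode was read from its column name. The barcodes, lists and comparisons were chosen with earlier results of these data known. UMIs were summed over the barcodes of a class, and ratios are log2 of summed UMIs over group totals with exact conditional binomial intervals. A count under 3 UMIs in the group with the lower level was set to a floor of 3, as a bound that never turned the direction. Hepatocyte markers were compared per barcode. Genes with at least 30 UMIs in both groups together were compared. Named genes were list genes with at least 30 UMIs or that define a list, and the 8 highest and 8 lowest ratios among genes with at least 100 UMIs, without rule, mitochondrial and ribosomal protein genes. Wnt2 and Rspo3 in the control and Actb were named after their values were seen. Positions carry the exact Poisson interval of the member sum, with the other 2 levels held. Of 47 other endothelial genes listed, 46 were in the table. Neighbours were found within each library (scanpy 1.11.5). All 296 list genes matched RefSeq, whose GRCm38.p6 positions are given. In simulated counts the ratio intervals held the true fold of 99.0% of 200 changed genes for control members over low barcodes (7902 genes run) and of 97.5% for tetYAP 4W (7754 genes run). These counts were drawn with Poisson error alone, so they check the calculation and say nothing about spread between barcodes. edgeR 4.0.16 gave TMM factors as an alternative scaling only. The alternatives were other limits of the rule, other totals and weights, thinning, other minimum counts and low barcodes restricted to those with few markers of other cells. Leaving out barcodes of other classes, other floors, other groups for the positions and 10 principal components were added after seeing the data. Python 3.11.15 and R 4.3.3 were used.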

Additional observations from a re-analysis of the deposited data

Results flagged for a closer look

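For single genes and lists at least 2-fold higher per barcode in high than in low barcodes of both libraries, positions of members were compared between the libraries. For 5 of them the counting intervals lay above 0% in control members and below 0% in tetYAP 4W members, and the difference itself was not tested. Actb, which encodes a cytoskeletal actin, stood at 25.4% in control and -21.1% in tetYAP 4W members. Fos stood at 6.20% and -9.33%, and Jun at 4.62% and -3.46%. The list of immediate early and stress genes stood at 4.68% and -6.04%, and the list of nuclear RNAs at 1.70% and -15.0%. With the 715 tetYAP 4W low barcodes that had few markers of other cells as the low group, all 5 tetYAP 4W positions were above 0%. With members and high barcodes of other classes left out as well, Fos (-2.09%), Jun (-0.82%) and the nuclear RNAs (-2.32%) were below 0% again.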

How the results depend on the processing

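No paired analysis was possible because each group has 1 library and no result comes from a test. Leaving out a replicate was not possible for the same reason. In all settings run, the other endothelial genes were above low and below high barcodes in both libraries. Depth limits single genes in the 60 control members.

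With a rule sum of 5 to 14, members were 1.104% of control and 6.50% of tetYAP 4W barcodes, the other endothelial genes stood at a log2 of 3.20 and 2.81 over low and -1.92 and -1.95 over high barcodes, hepatocyte markers at 0.050 in the control, nuclear RNAs at -0.41 in tetYAP 4W, and the endothelial ratio between libraries was 0.58. With a sum of 4 to 9 these were 6.17% (tetYAP 4W), 2.46 and 2.31, -2.65 and -2.45, hepatocyte 0.047 and -0.165, and nuclear -0.33 in the control. With a macrophage sum under 5, members were 6.76% of tetYAP 4W barcodes, hepatocyte markers stood at -0.0053 and -0.22, nuclear RNAs at -0.073 and the mitochondrial difference at -13.8 points (both tetYAP 4W).

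Totals without mitochondrial genes gave the other endothelial genes -2.14 and -1.83 over high, 2.46 over low in tetYAP 4W and 0.99 between libraries, and nuclear RNAs -0.33. Weighting barcodes equally gave -1.96 over high in tetYAP 4W. For hepatocyte markers it used shares of UMIs in place of UMIs per barcode, at -0.193 in the control and 0.0073 in tetYAP 4W. The latter turned in direction. Shares of summed UMIs, without equal weights, gave -0.22 and 0.005, so the turn came with the measure. Thinning to 2000 UMIs before the rule left 54 and 124 members and an endothelial ratio between libraries of 0.30. In tetYAP 4W, restricted low barcodes gave hepatocyte markers -0.25, nuclear RNAs 0.60, a turn in direction, and a mitochondrial difference of -18.5 points. Without barcodes of other classes, chosen after seeing the data, tetYAP 4W members were 11.3% of barcodes, the other endothelial genes stood at 2.75 and -2.05, hepatocyte markers at -0.27, nuclear RNAs at 0.060 (turned), the mitochondrial difference at -18.0 points, and the erythroid list between libraries at 0.82 in place of -0.90.

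Genes past 2-fold numbered 1164 (control, over low), 941 (tetYAP 4W, over low) and 537 (between libraries), 92.7%, 72.5% and 48.6% of them higher. At least 10 UMIs gave 1907, 1679 and 1356, and at least 100 gave 370, 206 and 152, with 77%, 57.3% and 28.9% higher. In the control no floor gave 2180 and a floor in both groups 2544. TMM factors gave 70.7%, 38.8% and 57.5% higher, and totals without mitochondrial genes 93.9%, 55% and 66.3%.

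Among genes and lists at least 2-fold higher in high barcodes of both libraries whose position had an interval clear of 0, those that turned under settings added later were, as shares of UMIs, the nuclear RNAs in the control (-0.082%). In tetYAP 4W with restricted low barcodes they were Malat1 (11.96%), Fos (2.16%), Jun (0.15%), Actb (22.1%), immediate early genes (7.92%) and nuclear RNAs (10.3%). Without other classes they were Actb (6.35%) and immediate early genes (0.86%), and under both, 10.47% and 2.35%. Where the interval had held 0, Malat1 in the control went from 1.37% to -0.41% as shares, and Jund and Dusp1 in tetYAP 4W went from -2.64% and -0.30% to 0.42% and 3.89% as shares, 8.43% and 11.5% with restricted low barcodes, 1.96% and 6.77% without other classes, and 3.06% and 7.40% under both. The cause of these shifts was not tested.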
